A study of Mus musculus with 10 samples.

Results

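The genes described here are the 10 members of the insulin-like growth factor (IGF) system that were chosen by gene symbol: the ligands Igf1 and Igf2, the receptors Igf1r and Igf2r, and the binding proteins Igfbp2, Igfbp3, Igfbp4, Igfbp5, Igfbp6 and Igfbp7. They are 10 of 26360 genes in the deposited expression table, and all 10 were among the 15414 genes tested, whose mean reached 1 CPM (a gene's reads scaled to the library's total). RNA was measured in the back of the eye of wild type C57BL/6J mice at postnatal day 34, in tissue that by its label joins the sclera, the choroid and the retinal pigment epithelium (RPE). The study fitted a goggle with a -20 D lens over one eye of each mouse at postnatal day 24 and left the fellow eye uncovered for the 10 days of lens wear, a standard way to make a young eye myopic. The 10 libraries are the left eye and the right eye of 5 mice, numbered 61, 64, 65, 66 and 68. The labels name each library as left or right and do not tie the lens to a side, so a right minus left difference has no treatment direction, and no untreated animals are among the samples.

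IGF1 and IGF2 are small secreted hormones that promote growth and survival through the IGF1 receptor, a tyrosine kinase that signals through the PI3K-AKT and RAS-MAPK routes. The IGF2 receptor, which also carries mannose 6-phosphate tagged enzymes to lysosomes, binds IGF2 and takes it to be degraded. The IGF binding proteins hold IGFs in the extracellular fluid and matrix, where proteases such as PAPPA and PAPPA2 can release them. IGF signalling has been studied in eye growth because IGF1 acts on scleral fibroblasts and, in chicks, can enlarge the eye.

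The libraries held an implied 66.8 to 94.0 M reads (median 79.2 M), so the 10 genes were far above the counting floor, and the spread between eyes rather than the read number limits precision. Of the cell type marker lists checked against the tissue label, 7 of 8 RPE markers and 8 of 8 scleral fibroblast markers reached 1 CPM, led by Rgr (1964 ± 289 CPM, SD, n = 10) and Col1a2 (2715 ± 421 CPM). Neural retina was present too: 8 rod markers, none at 0 in all libraries, summed to 217 to 911 CPM in the left eyes and 132 to 1890 CPM in the right eyes. The 8 skeletal muscle markers summed to between 1844 and 8529 CPM, and the 6 surface epithelium markers to between 94.97 and 747 CPM. In bulk tissue such as this, fewer cells of a type and less RNA per cell cannot be told apart.

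Per kilobase of exon, the binding proteins made up the bulk of the IGF transcripts and the 2 ligands were the least abundant members. Igfbp5, whose protein binds both IGFs and the extracellular matrix, stood at 326 ± 34.1 CPM per kb (SD, n = 10 libraries), at the 99.9th percentile of all tested genes by CPM. Igfbp7, which binds IGFs only weakly and is abundant in vessel walls, followed at 87.2 ± 9.90 CPM per kb, and in each of the 10 libraries Igfbp5 was the higher gene. The next 3 binding proteins lay close to each other: Igfbp6, which prefers IGF2, at 61.2 ± 9.24, Igfbp4 at 50.5 ± 5.70 and Igfbp2 at 45.6 ± 9.48 CPM per kb.

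Igfbp4 was above Igfbp2 in 7 of 10 libraries, and the ranges of the genes overlapped, so their order is within the spread between libraries. Igfbp3, the main carrier of IGFs in blood, was well below these at 14.6 ± 1.27 CPM per kb, and its range did not overlap that of Igfbp2. Igfbp5 alone made up 55.7% ± 2.46 (SD, n = 10) of the CPM per kb of the 6 binding proteins, from 53.3% in the left eye of animal 61 to 61.7% in the right eye of animal 66.

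The receptors came next. Igf2r measured 10.8 ± 0.749 and Igf1r 8.84 ± 0.780 CPM per kb, and Igf2r was the higher of the pair in 10 of 10 libraries. Counting only the longest transcript of each gene reversed that pair, with Igf1r at 13.0 and Igf2r at 11.3 CPM per kb, so the order of the receptors depends on the transcript model. Insr, the insulin receptor that can pair with the IGF1 receptor, was at 8.64 ± 0.518 CPM per kb, and the ratio of Igf1r to Insr averaged 1.02 ± 0.0699 over the 10 libraries.

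The ligand Igf2 was at 8.20 ± 1.13 CPM per kb, below Igf1r in 8 of 10 libraries, and Igf1 was lowest at 4.57 ± 0.831 CPM per kb. Igf2 exceeded Igf1 in every library on this scale, by 1.86 ± 0.496-fold on average (SD, n = 10). That ratio ran from 1.15 in the left eye of animal 65 to 2.91 in the right eye of animal 61. Of 9 neighbouring pairs in the order of levels, only 3 had ranges that did not overlap: Igfbp5 over Igfbp7, Igfbp2 over Igfbp3, and Igf2 over Igf1. With the longest transcript of each gene, the ranges of Igf2 (8.01 to 12.4 CPM per kb) and Igf1 (4.53 to 8.09) overlapped as well, and Igfbp2 (64.5) came before Igfbp6 (61.2) and Igfbp4 (58.2).

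**Figure D1:**
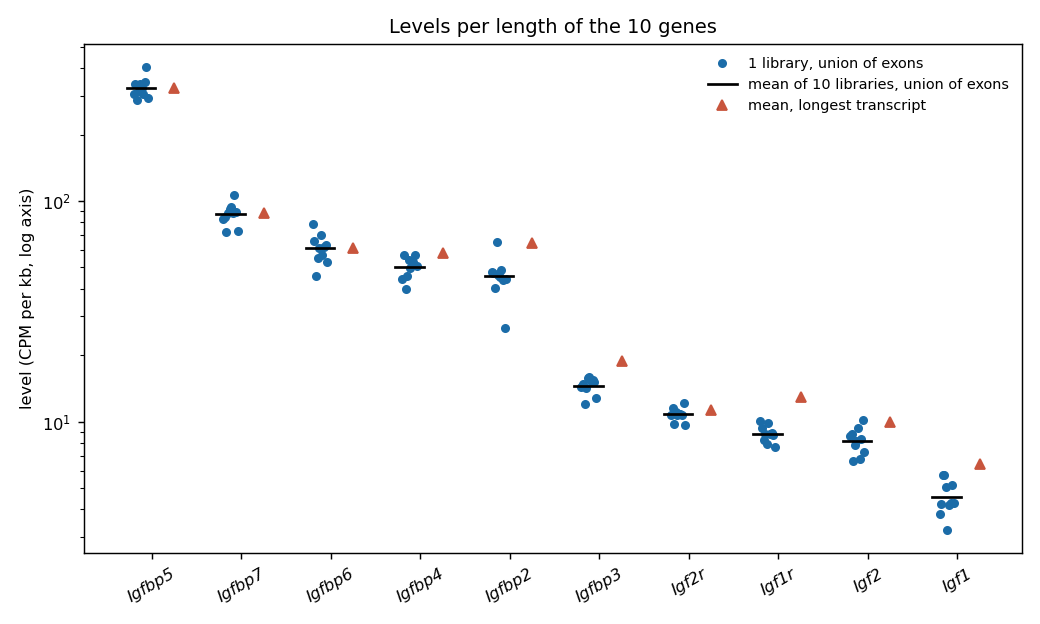
CPM per kilobase of exon on a logarithmic axis for the 10 IGF genes, one point per library. Lines mark the mean of the 10 libraries, and triangles mark the mean with the longest transcript of each gene. Igfbp5 (mean 326) is set apart at the top, the other binding proteins except Igfbp3 lie from 45.6 to 87.2, and Igf1 (4.57) is the lowest of the 10 members.

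The binding proteins of the set lie partly in neighbouring pairs, with their 3′ ends facing each other, and neighbours had unlike levels. On GRCm38, Igfbp2 (chr1:72824503-72852474, plus strand) ends 5457 bp from the end of Igfbp5 (chr1:72857932-72874884, minus strand). Igfbp1, a binding protein made mainly in liver, ends 3539 bp from Igfbp3 (chr11:7206086-7213923, minus strand), and was listed at 0 in 7 of 10 libraries. Its highest value was 0.0531 CPM, where 3 reads corresponded to 0.0319 to 0.0449 CPM. The promoters of these 4 genes are shown because the pairs hold the most abundant binding protein (Igfbp5), the gene that departed most in one eye (Igfbp2), and an expressed gene (Igfbp3) beside one that was close to undetected (Igfbp1).

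Each sequence is the 250 bases upstream of the RefSeq start on GRCm38.p6, 5′ to 3′ on the gene's own strand, at chr1:72874866-72875115 for Igfbp5, chr1:72824230-72824479 for Igfbp2, chr11:7213924-7214173 for Igfbp3 and chr11:7197537-7197786 for Igfbp1. For Igfbp2 the first of 2 starts in the RefSeq table is shown. Capitals mark matches, on either strand, to TATAAA or TATATA (forms of the TATA box) or GGGCGG (the GC box).
Igfbp5: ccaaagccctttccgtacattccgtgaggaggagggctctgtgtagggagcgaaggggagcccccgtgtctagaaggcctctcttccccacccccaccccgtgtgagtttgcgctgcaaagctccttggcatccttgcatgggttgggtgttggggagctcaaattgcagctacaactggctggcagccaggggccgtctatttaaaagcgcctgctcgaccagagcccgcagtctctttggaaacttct
Igfbp2: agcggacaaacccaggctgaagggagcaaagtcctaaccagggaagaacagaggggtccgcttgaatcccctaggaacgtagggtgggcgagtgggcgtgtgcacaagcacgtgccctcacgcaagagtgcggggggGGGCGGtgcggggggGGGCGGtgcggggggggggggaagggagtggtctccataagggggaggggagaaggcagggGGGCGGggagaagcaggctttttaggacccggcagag
Igfbp3: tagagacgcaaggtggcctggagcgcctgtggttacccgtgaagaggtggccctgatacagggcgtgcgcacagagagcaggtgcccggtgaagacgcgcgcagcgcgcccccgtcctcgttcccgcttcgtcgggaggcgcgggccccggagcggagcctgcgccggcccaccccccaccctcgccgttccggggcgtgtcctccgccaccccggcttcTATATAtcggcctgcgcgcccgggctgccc
Igfbp1: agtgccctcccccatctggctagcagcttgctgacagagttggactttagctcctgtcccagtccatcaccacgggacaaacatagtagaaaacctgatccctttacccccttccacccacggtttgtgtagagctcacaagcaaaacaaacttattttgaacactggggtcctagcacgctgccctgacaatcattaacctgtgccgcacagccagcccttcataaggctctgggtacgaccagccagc

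Igfbp2 held 3 GGGCGG matches, which begin 113, 98 and 37 bases upstream of its start, and Igfbp3 held 1 TATATA match 30 bases upstream. Igfbp5 and Igfbp1 held none of the searched letters in this window. Other spellings of these elements were not searched, so the lack of a match covers the searched letters only. Among 32851 promoters of the same length, 32.7% held GGGCGG, 12.4% TATAAA and 5.25% TATATA, which reads the same on both strands and was added to the search after the sequences had been seen. The GC content was 73.2% for Igfbp3, 67.2% for Igfbp2, 58.8% for Igfbp5 and 53.2% for Igfbp1, against a median of 52.4% over all promoters. Igfbp3 carried 32 CpG dinucleotides and Igfbp1 5.

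Comparing the right with the left eye asks whether IGF gene expression differed by side in the same direction across animals. The labels do not give the side of the lens. If that side varied between animals, a lens effect would not appear as a consistent right minus left difference. The test therefore cannot decide whether the lens-wearing and the uncovered eyes differed. No member passed the test at an adjusted p of 0.05 (limma, Benjamini-Hochberg over 15414 genes), and neither did any other gene, so 0% were called. Without adjustment 1 of the 10 members had a p under 0.05, where the share over all tested genes was 2.79% (430 genes). The median right minus left difference was 0.04 on the log2 scale over the 10 members and -0.01 over all tested genes. The median size of the fellow-eye difference, whatever its sign, was 0.17 for the members and 0.14 for all tested genes.

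**Figure D2:**
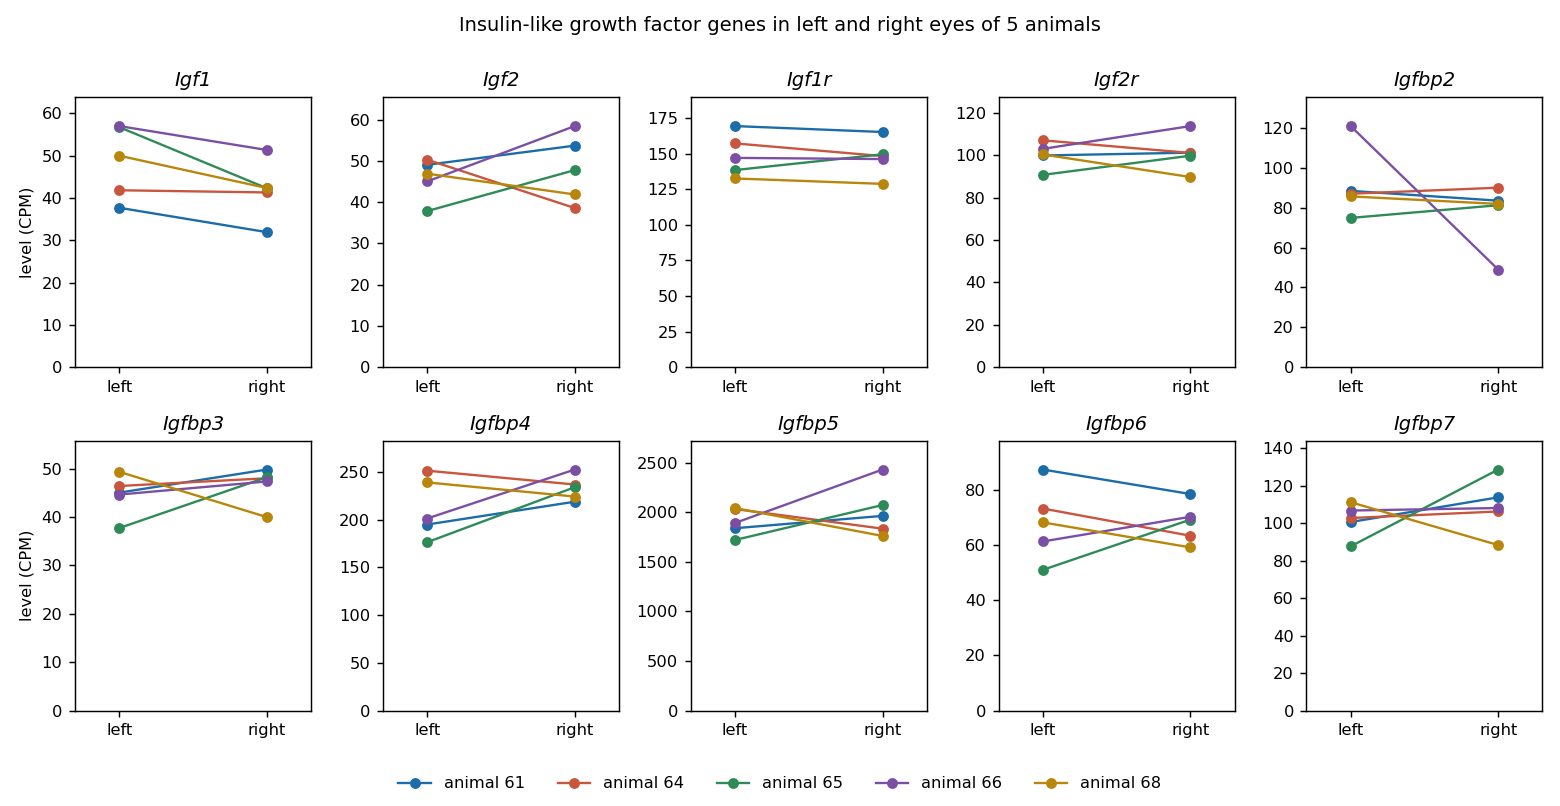
CPM of each IGF gene in the left and the right eye, with one line per animal joining its 2 eyes and one panel per gene. Igf1 is the panel in which all 5 lines slope the same way, and the steep line in the Igfbp2 panel is animal 66 (121 CPM left, 49.0 CPM right).

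Igf1, the growth hormone-responsive ligand (chr10:87858265-87937042, plus strand), was the member with the smallest p. In the left eyes of animals 61, 64, 65, 66 and 68 it measured 37.7, 41.8, 56.8, 57.02 and 50.0 CPM, a mean of 48.7 ± 8.72 (SD, n = 5). In the right eyes of the same animals it measured 31.9, 41.3, 42.3, 51.4 and 42.4 CPM, a mean of 41.9 ± 6.89. The right eye was the lower one in 5 of 5 animals, by least in animal 64, where it stood at 98.8% of the left eye, and by most in animal 65, at 74.5%, although the groups overlapped.

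The Igf1 difference was -0.21 ± 0.06 on the log2 scale (SE, limma), a right eye level 0.863-fold that of the left (95% interval 0.779 to 0.955). Its unadjusted p was 0.0109 and its adjusted p 0.9998 (limma, Benjamini-Hochberg), and 37 other genes had smaller p-values. An exact two-sided sign-flip permutation test over the 5 animals gave p = 0.0625, the smallest it can give. Genes lower in the right eye in 5 of 5 animals made up 2.67% of all tested genes, and genes with one direction in 5 of 5 made up 4.44%. With the animal left out of the model as a replicate block the difference stayed at -0.21 with an unadjusted p of 0.151.

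The second ligand did not share the pattern. Igf2 (chr7:142650766-142666816, minus strand), an imprinted fetal growth factor, measured 49.1, 50.3, 37.8, 45.0 and 46.9 CPM in the left eyes (mean 45.8 ± 4.90) and 53.7, 38.6, 47.8, 58.5 and 41.9 CPM in the right eyes (mean 48.1 ± 8.19), in the order of animals given above. It was higher on the right in 3 animals and lower in 2, and the difference of 0.06 ± 0.11 (log2, SE) had a 95% interval of -0.21 to 0.33. H19, the maternally expressed noncoding RNA from the same imprinted locus, ranged from 37.1 to 82.0 CPM with a difference of 0.03 ± 0.23. Gm49394, which spans Igf2 on the same strand, and Igf2os, on the opposite strand, averaged 0.240 and 0.279 CPM. How reads in the shared stretches were assigned is not known.

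Igf1r (chr7:67952827-68233668, plus strand) was the member that differed least between fellow eyes. It measured 169.5, 157, 139, 147 and 133 CPM in the left eyes and 165, 148, 150, 146 and 129 CPM in the right eyes. The SD of its 5 fellow-eye differences was 0.07 on the log2 scale, at the 5.88th percentile of all tested genes. The mean difference was -0.01 ± 0.05 (log2, SE; 95% interval -0.12 to 0.10), and it turned to 0.00 on the positive side under TMM or median-of-ratios scaling, so it has no stable sign.

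Igf2r (chr17:12682406-12769664, minus strand) ranged from 90.7 to 107 CPM in the left eyes and from 89.7 to 114 CPM in the right eyes, a difference of 0.01 ± 0.06 (log2, SE; 95% interval -0.13 to 0.15). The noncoding RNA Airn, which represses the paternal Igf2r copy early in development, overlaps 28354 bp of Igf2r on the opposite strand and averaged 9.83 CPM. The sources used here do not state if counting used strand, so part of either signal may belong to the other gene. For both receptors the interval gives the bounds of a right to left change: the fold intervals were 0.920 to 1.07 for Igf1r and 0.916 to 1.11 for Igf2r.

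Igfbp2, a binding protein abundant in ocular fluids and in developing tissue, had the widest fellow-eye spread. It measured 88.5, 87.0, 74.9, 121 and 85.7 CPM in the left eyes and 83.5, 90.1, 81.3, 49.0 and 81.9 CPM in the right eyes. The highest and the lowest of the 10 values were both from animal 66, whose log2 difference was -1.30, while the other 4 animals lay between -0.08 and 0.12. The SD of the 5 differences, 0.59, was at the 92.8th percentile of all tested genes.

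Over all animals, Igfbp2 differed by -0.26 ± 0.20 (log2, SE; limma; 95% interval -0.72 to 0.21), and without animal 66 by 0.00. The surface epithelium markers summed to 747 CPM in the left and 94.97 CPM in the right eye of animal 66, the highest and lowest of all libraries. Their sum also fell from left to right in animal 65 (477 to 95.5 CPM) and animal 64 (580 to 258 CPM). Igfbp2 was higher on the right in those animals, by 0.12 and 0.05 (log2). In animal 61 the sum rose (217 to 511 CPM) and Igfbp2 was lower on the right, and in animal 68 both were lower on the right. With the surface epithelium level as a covariate, chosen after seeing the data, the Igfbp2 difference was -0.05, with an unadjusted p of 0.821 (limma). With the skeletal muscle level as a covariate it was -0.34, with an unadjusted p of 0.0126 and an adjusted p of 0.679 (limma). The left eye of animal 66 also had the lowest skeletal muscle sum (1844 CPM) and the highest sum of Schwann cell and myelin markers (216 CPM). The inner retina list also had its highest sum in the left eye of animal 66 (376 CPM) and its lowest in the right eye (234 CPM). Trpm1 averaged 236 ± 36.6 CPM over the libraries (SD), so it made up much of this sum. Which cells carried Trpm1 was not tested. The covariate fits re-estimate only the mean difference over the animals. The parts of surface epithelium, skeletal muscle, inner retina and Schwann cells in the Igfbp2 values were not tested.

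Igfbp5 measured 1838, 2032, 1720, 1891 and 2041 CPM in the left eyes (mean 1904 ± 136) and 1963, 1834, 2072, 2430 and 1760 CPM in the right eyes (mean 2012 ± 263). Its highest value was the right eye of animal 66, the eye with the lowest Igfbp2. The difference was 0.07 ± 0.11 (log2, SE; 95% interval -0.18 to 0.32), smaller than the spread between animals.

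Igfbp4 (chr11:99041244-99054392, plus strand), which PAPPA cleaves, measured 195, 251, 176, 201.1 and 239 CPM in the left eyes and 219, 237, 234, 252 and 224 CPM in the right eyes. It had the largest mean difference towards the right eye among the members, 0.14 ± 0.09 (log2, SE; 95% interval -0.06 to 0.35; limma unadjusted p = 0.137), with 3 animals higher on the right and 2 lower. The left eyes of animals 61, 65 and 66 were below every right eye, and the left eyes of animals 64 and 68 were above the matching right eyes.

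The remaining binding proteins had small differences with intervals that include 0. Igfbp3 ranged from 37.7 to 49.3 CPM on the left and 39.97 to 49.8 CPM on the right, Igfbp6 (chr15:102144362-102149511, plus strand) from 50.9 to 87.3 and 59.1 to 78.4 CPM, and Igfbp7 (chr5:77349240-77408041, minus strand) from 87.6 to 111 and 88.3 to 129 CPM. The mean differences were 0.07 ± 0.09 for Igfbp3, 0.01 ± 0.10 for Igfbp6 and 0.09 ± 0.11 for Igfbp7 (log2, SE, limma). Left and right values overlapped for all 10 members, and over all tested genes the eyes did not overlap for 0.214%.

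**Figure D3:**
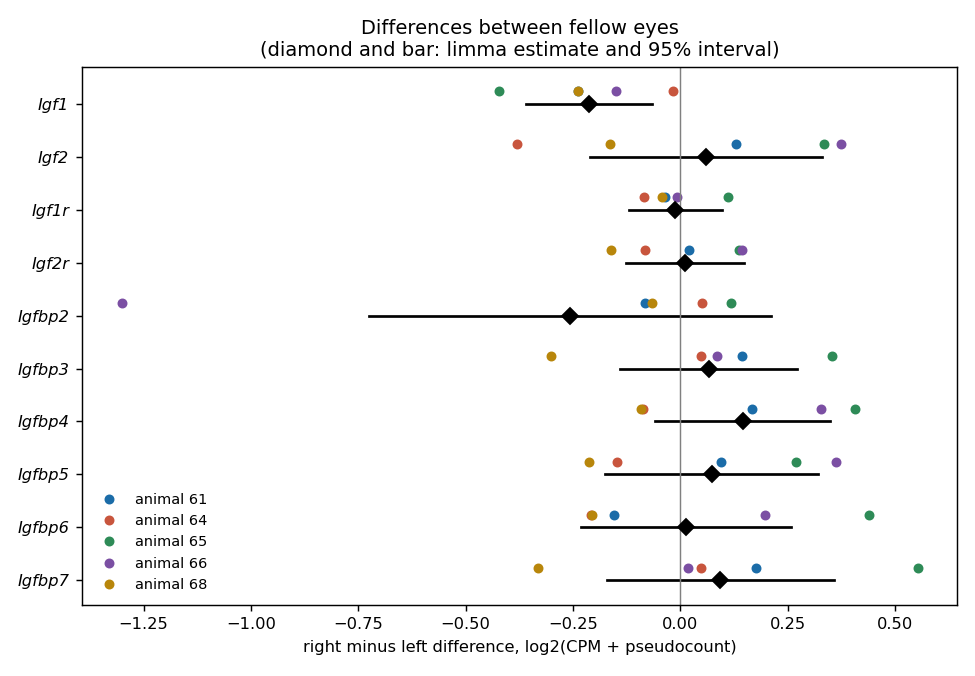
Right minus left difference in log2(CPM + 0.230) of each IGF gene, with points for the 5 animals and the limma mean and 95% interval. All points of Igf1 lie below 0, those of Igf1r lie closest together (SD 0.07), and Igfbp2 of animal 66 lies apart at -1.30.

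The members mostly shared a direction in 2 of the 5 animals and were split in the others. In animal 65 the right eye had more of 9 of 10 members, Igf1 being the exception, and in animal 68 all 10 were lower in the right eye. The counts of members higher on the right were 7 in animal 66, 6 in animal 61 and 3 in animal 64. Over all tested genes the share higher on the right was 60.8% in animal 65, 37.4% in animal 68, 44.4% in animal 66, 51.4% in animal 61 and 40.9% in animal 64. All listed genes together held 426877 to 471412 CPM per library, so much of each CPM total lay outside them. This sum went from 426877 on the left to 464480 on the right in animal 65, and from 462850 to 446704 in animal 68. It was also higher on the right in animals 61 and 66 and lower in animal 64. Its part in the directions within animals was not tested.

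Several marker lists moved with these directions, rods in the opposite sense and RPE and smooth muscle in the same sense. In animal 65 the rod sum was 911 CPM on the left and 296 CPM on the right, and in animal 68 it was 236 CPM on the left and 1890 CPM on the right. The right eye had fewer rod transcripts in animals 61, 65 and 66, in which 6 to 9 members were higher on the right, and more in animals 64 and 68, in which at most 3 were. The RPE sum and the smooth muscle and pericyte sum were higher on the right in animals 61, 65 and 66 and lower in animals 64 and 68. Other lists did not hold to this in every animal. The fibroblast sum fell from left to right in animal 61 (8382 to 8065 CPM). The endothelial sum rose in animal 64 (346 to 356 CPM). The surface epithelium and inner retina sums also departed from the pattern in at least 1 animal. In animal 65 the RPE sum was 4917 CPM on the left and 6771 CPM on the right, and in animal 68 the smooth muscle and pericyte sum was 820 CPM on the left and 717 CPM on the right. The parts of RPE and smooth muscle in these differences were not tested. The part of retina carried over in these differences within animals was not tested. A fit with the rod level as a covariate, chosen after seeing the data, re-estimated only the mean right minus left difference over the animals. That mean kept its sign for all 10 members, which does not bear on the directions within single animals.

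Across the 10 libraries, 8 of 10 members had a negative Pearson correlation with the rod list, from -0.82 for Igf2 to -0.27 for Igfbp4, whereas Igf1 (0.27) and Igfbp2 (0.23) had weak positive ones. Such values share library, animal and the CPM total, and are given as a description. The inner retina list was likewise negative for 8 of 10 members, and the smooth muscle and pericyte list was positive for 10 of 10, from 0.00 for Igf1 upwards. Igfbp7 followed smooth muscle and pericyte markers (r = 0.90) and endothelial markers (0.84) most closely. Igf2 followed RPE (0.78) and scleral fibroblast markers (0.75), and Igfbp5 followed RPE markers (0.77).

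The lists behind these values varied little compared with rods. The 8 smooth muscle and pericyte markers summed to 789 to 828 CPM on the left and 717 to 890 CPM on the right, and the 8 endothelial markers to 346 to 375 and 312 to 419 CPM. The 8 RPE markers summed to 4917 to 5540 CPM on the left and 5115 to 6808 CPM on the right, and the 8 fibroblast markers to 6514 to 9523 and 6801 to 9548 CPM. No marker of these lists was at 0 in all libraries. Igf1 followed none of the 14 lists closely, its correlations lying between -0.43 with macrophage markers and 0.27 with rods.

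**Figure D4:**
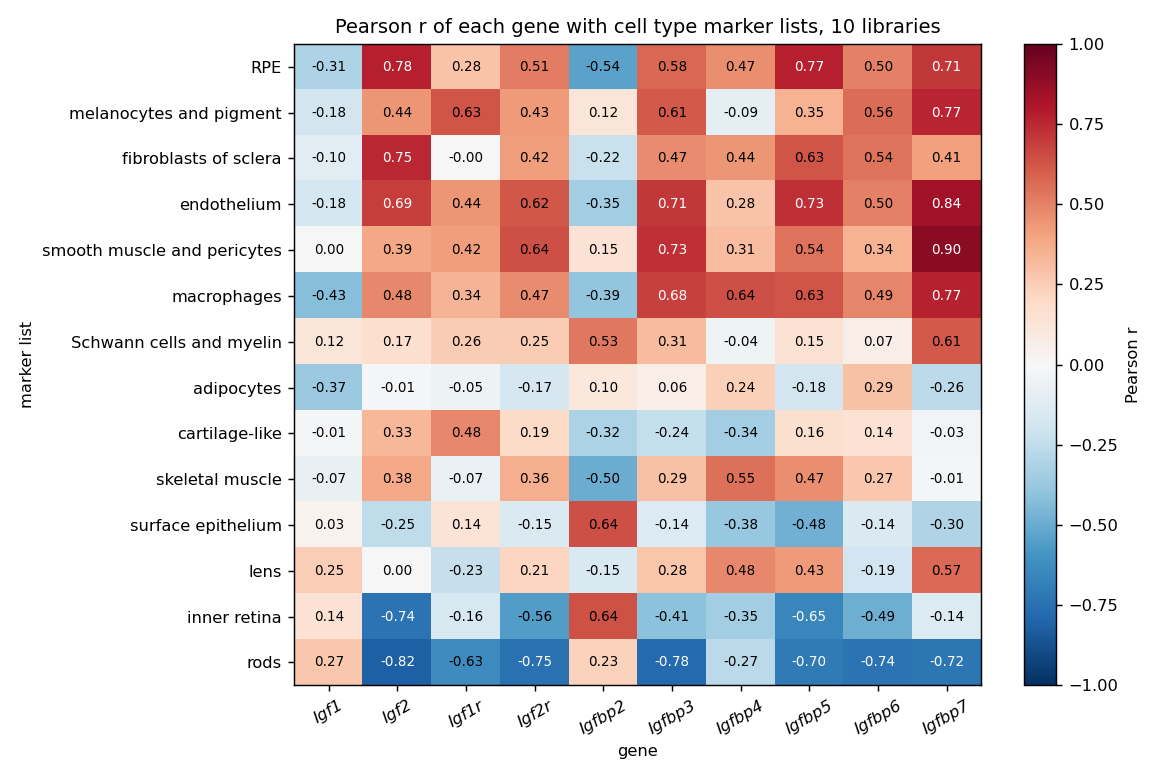
Pearson correlation over 10 libraries between each IGF gene (log2 CPM) and each cell type marker list, as a colour scale from negative to positive. The rod row is negative for 8 of 10 genes, and Igfbp7 has its highest values with smooth muscle and pericytes (0.90) and endothelium (0.84).

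Among the members themselves, Igfbp3 and Igfbp7 were the most alike pair (r = 0.87 over 10 libraries), followed by Igf2r with Igfbp5 (0.85) and Igf2 with Igfbp5 (0.82). The most opposed were Igf1 with Igfbp6 (-0.69), Igf1 with its receptor Igf1r (-0.61), and Igfbp2 with its neighbour Igfbp5 (-0.60). The last of these rested on the right eye of animal 66.

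**Figure D5:**
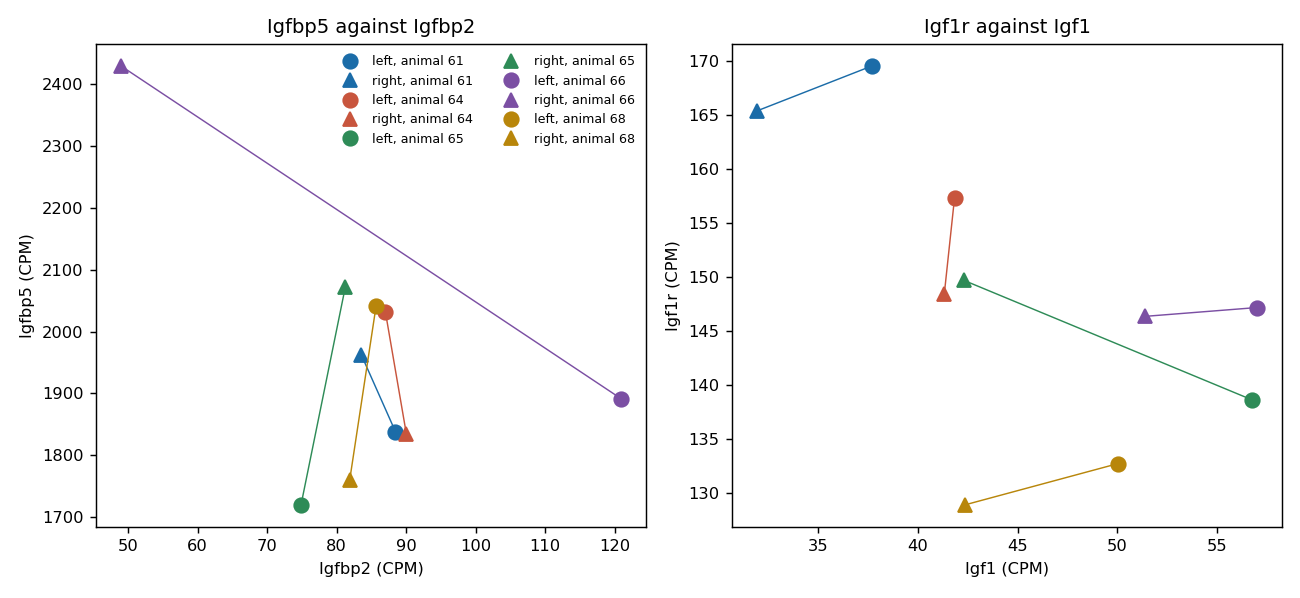
CPM of Igfbp5 against Igfbp2 (left) and of Igf1r against Igf1 (right), one point per library; the axes do not start at 0. The right eye of animal 66 has the lowest Igfbp2 (49.0 CPM) and the highest Igfbp5 (2430 CPM), and animal 61 has the 2 highest Igf1r values and the lowest Igf1 value.

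Between animals, Igf1 and Igf1r were the members that varied most relative to their fellow-eye spread. The mean Igf1 level of both eyes was 34.8 CPM in animal 61, 41.6 in animal 64, 46.2 in animal 68, 49.5 in animal 65 and 54.2 in animal 66, a 1.56-fold range. The mean Igf1r level went the other way at its upper end, with 167 CPM in animal 61, 153 in animal 64, 147 in animal 66, 144 in animal 65 and 131 in animal 68, a 1.28-fold range. Animal 61 thus had the lowest Igf1 and the highest Igf1r, whereas the highest Igf1 and the lowest Igf1r were in different animals.

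Neither passed the moderated F test between animals after adjustment (limma, Benjamini-Hochberg): for Igf1 the unadjusted p was 0.00257 and the adjusted p 0.360, and for Igf1r they were 0.0162 and 0.564. Over all tested genes 13 (0.0843%) were called between animals, none of them a member, and 7.22% had an unadjusted p under 0.05, against 2 of 10 members. The other 8 members had unadjusted p-values of 0.144 or more. Among these, Igfbp6 had the widest range of animal means, 1.38-fold, from 60.04 CPM in animal 65 to 82.8 CPM in animal 61. Both small p-values depended on animal 61: without it the unadjusted p was 0.0643 for Igf1 and 0.155 for Igf1r, and 0 of 10 members were under 0.05 (limma). Without animal 68 that of Igf1r was 0.0975.

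The genes whose log2 levels followed each member most closely over the 10 libraries were listed among 13186 protein-coding genes, with 3 for each member. Those of Igf1 were Btbd3 (r = 0.90), Mrps15 (0.88) and Adam4 (0.87), the weakest set of the 10. Those of Igf2 were Cdkn1a (0.97), Slc12a4 (0.96) and Slc43a2 (0.96), and those of Igf1r were Ctdsp2 (0.97), Fetub (0.97) and Lyz2 (0.95). Igfbp2 was closest to Acly (0.97), a lipid synthesis enzyme, and to Pter (0.95), Igfbp5 to Nfe2l1 and Fndc1 (both 0.96), and Igfbp7 to Higd2a (0.98). The closest gene was Oaf (0.96) for Igf2r, Calml4 (0.96) for Igfbp3, Mgl2 (0.93) for Igfbp4 and Dcaf11 (0.97) for Igfbp6. The values are a description over libraries that share animals, and no test is attached to them.

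The wider IGF pathway also showed no called right minus left difference. Of 82 chosen partner and signalling genes, 80 were found in the table and 71 were tested, and Irs4 and Slc22a3 are not analysed here. Of those tested, 37 were higher and 34 lower on the right, with a median of 0.00 (log2), and 0 were called, as for all genes. Over all tested genes 7094 were higher and 8320 lower. Unadjusted p-values under 0.05 were found for 2 of the 71 genes, among them Pappa2.

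Pappa2, the protease that cleaves IGFBP3 and IGFBP5, measured 35.9 ± 6.22 CPM in the left and 46.0 ± 9.12 CPM in the right eyes (SD, n = 5), higher on the right in 4 of 5 animals. Its difference was 0.35 ± 0.14 (log2, SE), with an unadjusted p of 0.0436 and an adjusted p of 0.9998 (limma, Benjamini-Hochberg).

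Of the binding partners and proteases, 3 of 7 tested genes were higher on the right and 4 lower; Htra1, a serine protease that can cleave IGFBP5, differed by -0.06 ± 0.07, and it overlaps Fgfr2 on the opposite strand. Of the receptors and adaptors, 7 of 10 were higher, among them Insr (119 ± 7.13 CPM, difference 0.03 ± 0.06) and Grb10, an imprinted adaptor that restrains receptor signalling (70.5 ± 5.28 CPM, 0.02 ± 0.06). Of the PI3K-AKT-mTOR genes, 8 of 21 were higher; Pik3r1, the regulatory subunit of the kinase, differed by 0.03 ± 0.06. Of the RAS-MAPK genes 7 of 12 were higher, with Dusp6, a feedback phosphatase of ERK, at 0.07 ± 0.07 and Braf at 0.04 ± 0.04.

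Of the growth hormone axis, 2 of 7 genes were higher on the right; Ghr, the growth hormone receptor, differed by -0.09 ± 0.06 and Stat5b, the transcription factor that it activates, by -0.04 ± 0.08. All 5 tested genes of the Igf2 and Igf2r loci and their RNA-binding proteins had positive differences, between 0.03 and 0.14, and none was called. Of the IGFBP-related secreted proteins, 5 of 9 were higher, including Crim1 (226 ± 23.6 CPM, 0.12 ± 0.07), which overlaps Fez2 on the opposite strand. Ccn2, a matrix-associated growth factor of fibroblasts, was at 312 ± 76.0 CPM with a difference of 0.10 ± 0.09, and varied between animals with an unadjusted p of 0.000959 and an adjusted p of 0.296 (limma).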

How the data were processed

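RNA was measured in 10 libraries. Per the labels' protocols, 1 μg of total RNA per library was depleted of ribosomal RNA and prepared with a stranded kit. That protocol speaks of retinae, although the tissue label does not. STAR, Partek and the build GRCm38 (mm10) are listed in the submitters' processing notes; for versions and annotation, nothing is stated in the material used here. The values that the authors deposited have the form of CPM plus an offset of 0.0001, which was subtracted. About 90% of low values were whole multiples of a step (tolerance 0.05), which gave the implied depth; whole reads were not recovered.

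Values were tested as log2(CPM + 0.230), which understates changes of low genes. The model was limma 3.58.1 in R 4.3.3 with animal and eye side as terms, an intensity trend and Benjamini-Hochberg adjustment over the 15414 genes whose mean reached 1 CPM. The eyes pair by animal number in the titles. Deviations of fellow eyes correlated over 0.1 in 2 of 5 animals, with 0.27 in animal 61 as the highest. The correlation was negative in animals 66 (-0.19) and 68 (-0.055). The limma p-values set each difference against the residual spread left after the terms of the model, moderated across genes. They rest on these samples only. The fit was tested on simulated data. Kilobases are the union of exons in GENCODE M21, and ends of genes are the deposited stop minus 1. Besides the members, pathway genes were named as the 2 most abundant of each list and any called gene, and the 3 most alike protein-coding genes were listed for each member. Igfbp1 and Airn are outside this rule and were chosen after their values were seen. Values of some pathway genes are not reported here. The members, lists and alternatives were chosen with earlier results of these data known.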

Additional observations from a re-analysis of the deposited data

Results flagged for a closer look

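Within each eye side, each member's 5 values were checked for a single value set apart from the rest by Dixon's criterion (critical value 0.71). Of 20 groups tested, 2 had such a value, where the nominal rate of the criterion is about 1 in 20. The groups share the same libraries, and the share over all tested genes is not given here. Whether 2 of 20 is unusual for these data is therefore not known. Igfbp2 in the right eye of animal 66 was 49.0 CPM, where the next lowest right eye was 81.3 CPM (gap over range 0.786). Igfbp3 in the right eye of animal 68 was 39.97 CPM, where the next lowest was 47.3 CPM (0.749). The right eye of animal 66 had the lowest sum of surface epithelium markers, and the right eye of animal 68 the highest sum of rod markers. Their part in these single values was not tested. The fits with either list as a covariate, chosen after seeing the data, concern mean differences only.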

How the results depend on the processing

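The count of genes called between the eyes was 0 in the reported fit and under all 20 alternatives, including the fit with no replicate block (0); 430 genes had an unadjusted p under 0.05 in the reported fit. The count between animals, 13, became 20 with array weights, 20 with the fibroblast covariate, 25 without the eye term, and 5 to 11 without one animal. The Igf1 difference stayed negative under 20 of 20 alternatives (-0.26 to -0.16, log2); its unadjusted p was 0.00540 to 0.151 and under 0.05 in 17, its adjusted p 0.695 to 0.9999 (limma).

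Igfbp4 stayed positive under 20 of 20 (0.069 to 0.20), with an unadjusted p under 0.05 in 3. The other 8 members, with intervals that include 0, changed sign under at least 1 alternative. With the surface epithelium covariate Igf2 was -0.033, Igf2r -0.036, Igfbp5 -0.016 and Igfbp6 -0.13. With the fibroblast covariate Igf2r was -0.0066 and Igfbp6 -0.028, and with array weights Igfbp6 was -0.048. Igf1r was 0.0040 under TMM scaling (unweighted) and 0.0032 under median-of-ratios scaling. Leaving out 1 animal gave -0.020 to 0.17 for Igf2, -0.042 to 0.0062 for Igf1r, -0.022 to 0.054 for Igf2r, -0.35 to 0.0048 for Igfbp2, -0.0060 to 0.16 for Igfbp3, -0.093 to 0.069 for Igfbp6 and -0.022 to 0.20 for Igfbp7. The cause was not tested. With 5 animals and 4 residual degrees of freedom, small differences cannot be resolved.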
